A study of Homo sapiens with 2 samples.

Results

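The thymosins, actins and contractile genes described here are 10 protein-coding genes of the actin cytoskeleton: TMSB10, TMSB4X, ACTB, ACTG1, ACTA2, PFN1, CFL1, TAGLN, TAGLN2 and MYL6. They were taken by gene symbol from an mRNA table of 21445 genes, of which 14376 are typed as protein-coding, and all 10 had a row. The sample was U87MG, an established human glioblastoma cell line kept in MEM with serum and left untreated, and the series holds 1 mRNA library and 1 small RNA library of it. With 1 library and no control cell, every value below is a level in this library and none could be set against a spread between replicates. Levels are the authors' deposited FPKM, that is, fragments per gene adjusted for its length and for the size of the library; the depth of the library is unknown, so no interval can be given.

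Actin is the protein of the thin filaments that shape a cell and let it crawl. Its monomers are held back by beta thymosins and handed to growing filament ends by profilin, old filaments are cut by cofilin, and myosin II pulls on filaments bound by tropomyosin and by proteins of the calponin and transgelin family. In gliomas these proteins are studied for their part in the invasion of brain tissue.

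The 10 genes ran from 2925 FPKM for TMSB10 down to 7.19 FPKM for TAGLN, a 407-fold range. All 10 were at 1 FPKM or more, against 77.5% of all coding rows, and 7 of 10 were at 100 FPKM or more, against 3.83% of all coding rows. Their median was 354 FPKM, and that of all coding rows was 7.82 FPKM. No test lies in these contrasts, since the 10 genes were chosen with earlier results of these data known. Together they summed to 8082 FPKM, or 2.16% of the FPKM of all coding rows. Most of this lay in TMSB10, TMSB4X, ACTB and MYL6, which held 88.6% of the sum and ranked between 4 and 24 among coding genes. At the other end, ACTA2 and TAGLN, the smooth muscle members, lay next to the median of all coding rows. The order of close neighbours, such as TMSB4X and ACTB or TAGLN2 and PFN1, rests on 1 value each.

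**Figure D1:**
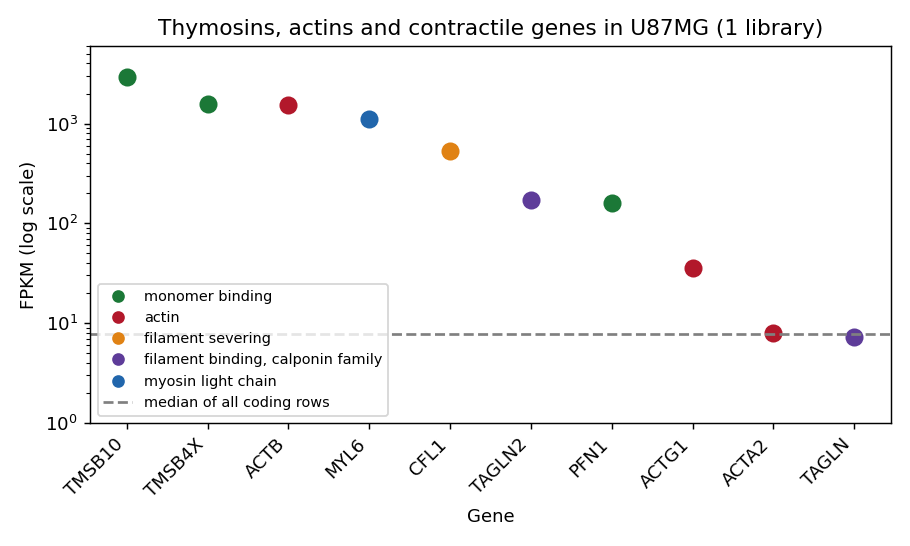
FPKM (log axis) of the 10 genes in the single U87MG mRNA library, ordered from high to low and coloured by role, with the median of all coding rows as a dashed line. TMSB10 is highest at 2925 FPKM, and ACTA2 (7.92 FPKM) and TAGLN (7.19 FPKM) lie on the dashed line at 7.82 FPKM.

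Levels of glial markers are given beside the cell line label. They were uneven and do not verify the label. VIM, an intermediate filament protein of mesenchymal and immature glial cells, was at 2420 FPKM, GJA1, a gap junction protein, at 143, GLUL, the glutamine synthetase, at 35.3, and SLC1A3, a glutamate transporter, at 19.3. NES, a filament protein of neural progenitors, was at 1.38 FPKM and GFAP, the astrocyte filament protein, at 0.331, while S100B, AQP4 and ALDH1L1 had no row. A gene without a row is named as such and is not given a level.

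The beta thymosins TMSB10 and TMSB4X were the highest of the 10 genes. Both are very short proteins that bind actin monomers and keep them from joining a filament. TMSB10 was at 2925 FPKM and rank 4 of the coding genes, between S100A6, a calcium-binding protein (2982 FPKM), and FTL, the ferritin light chain (2825 FPKM). TMSB4X was at 1579 FPKM and rank 13, between RPL37A, a ribosomal protein (1650 FPKM), and LDHA, lactate dehydrogenase A (1568 FPKM). The level of TMSB10 was 1.85 times that of TMSB4X. The other beta thymosins were low or not listed: TMSB15B was at 0.314 FPKM, and TMSB15A had no row. TMSB10 and TMSB4X thus held nearly the whole family sum of 4504 FPKM, 64.9% and 35.1% of it. The alpha thymosins PTMA and PTMS, which are unrelated to the beta thymosins in sequence, were at 246 and 33.3 FPKM. The file's length column has no stated unit, and whether it counts bases or the amino acids of the protein was not tested. It reads 44 for both TMSB10 and TMSB4X. Of 135 coding rows with a length of 44 or less these were the only 2 at 1000 FPKM or more. Over all 14376 coding rows, 32 reached 1000 FPKM. The median of the 135 was 6.96 FPKM, against 7.82 FPKM for all coding rows. FPKM divides by the length of the RNA, but whether this column held the length used is not known. A count of amino acids would not be that length. The levels of short genes depend on the length rule of the program, which is not given in the sources used here.

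Since these are the highest genes of the group, the 250 bases before the annotated start of each are shown from the RefSeq promoter table (GRCh38.p14), 5′ to 3′ on the gene's own strand. Capitals mark TATAA, the core of the TATA box, and GGGCGG, the GC box, each searched on both strands:
TMSB10, chr2:84905406-84905655, plus strand: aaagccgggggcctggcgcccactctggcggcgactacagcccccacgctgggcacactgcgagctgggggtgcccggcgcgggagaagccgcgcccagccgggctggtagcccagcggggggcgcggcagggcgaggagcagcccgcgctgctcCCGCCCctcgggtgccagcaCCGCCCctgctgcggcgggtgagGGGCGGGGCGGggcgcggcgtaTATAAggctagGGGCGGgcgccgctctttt
TMSB4X, chrX:12974860-12975109, plus strand: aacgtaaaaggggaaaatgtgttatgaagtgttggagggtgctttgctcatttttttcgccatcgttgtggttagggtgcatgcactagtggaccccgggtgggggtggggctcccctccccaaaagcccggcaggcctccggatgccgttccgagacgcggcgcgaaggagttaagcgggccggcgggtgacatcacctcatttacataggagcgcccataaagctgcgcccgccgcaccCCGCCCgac
The TMSB10 window held TATAA at position -30 from the start and GGGCGG at 5 places, of which those at -52 and -47 share 1 base. The TMSB4X window held no TATAA and GGGCGG once, at -9. Windows run from 250 bases before a start to 50 after it; of all 35116 windows in the table, TATAA was found in 20.4% and GGGCGG in 44.95%. A match of letters is a description and not a measured binding site.

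TMSB4X stood apart in its pseudogene rows. Pseudogenes are copies of a gene that have lost its function, and reads of a gene can be assigned to a close copy. The row named TMSB4XP6 was at 1911 FPKM, above TMSB4X itself, TMSB4XP1 was at 390 FPKM and TMSB4XP8 at 36.3 FPKM. TMSB4XP6 was the highest and TMSB4XP1 the third highest of 2843 pseudogene rows. The 3 rows summed to 2337 FPKM, 148% of the level of TMSB4X. Over the whole table, 577 coding genes had at least 1 row named as their pseudogene, and in 38 of them (6.59%) these rows summed to more than the parent. Among the 141 of them with a parent at 100 FPKM or more, TMSB4X was the only 1 where they did; the next was HMGN2, a nucleosome-binding protein, at 52.4% of its parent, and the median was 1.28%. TMSB4X with its 3 pseudogene rows came to 3916 FPKM, 1.34 times TMSB10, so the order of the 2 thymosins depended on whether these rows were added. TMSB10 had no pseudogene row. How reads that match several copies were assigned is not given, and reads of TMSB4X and of its copies cannot be told apart here.

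The other genes showed no such rows of comparable level. ACTB had 2 pseudogene rows, ACTBP7 (0.512 FPKM) and ACTBP14 (0.133 FPKM), together 0.0417% of ACTB. ACTG1 had 5, from ACTG1P3 (1.03 FPKM) and ACTG1P1 (0.763 FPKM) down to ACTG1P4 (0.0327 FPKM), together 5.66% of ACTG1. CFL1 had CFL1P3 (2.18 FPKM) and CFL1P6 (0.848 FPKM), PFN1 had PFN1P2 (1.18 FPKM), and TAGLN2 had TAGLN2P1 (0.316 FPKM), each set under 1% of its parent. MYL6, ACTA2 and TAGLN had none.

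**Figure D2:**
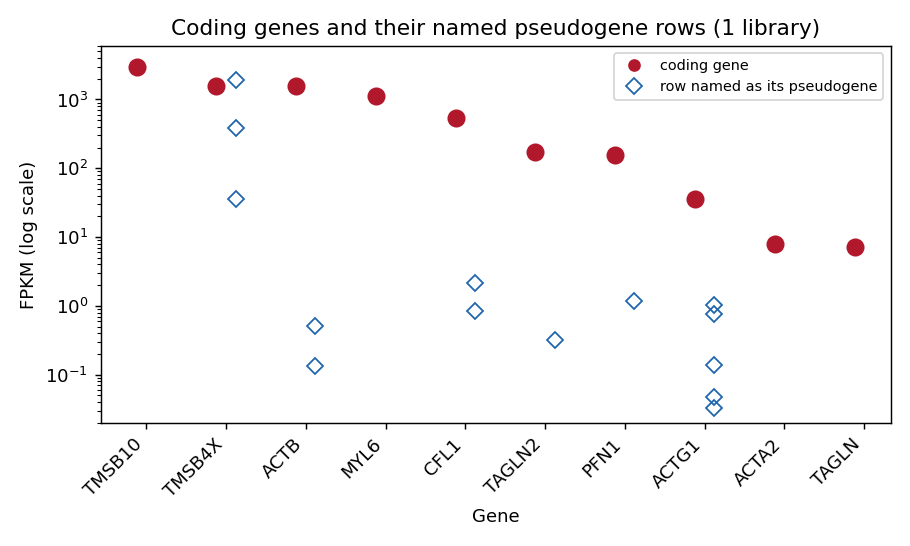
FPKM (log axis) of the 10 coding genes (filled circles) and of each row named as a pseudogene of one of them (open diamonds), in 1 library. Only for TMSB4X does a diamond, TMSB4XP6 at 1911 FPKM, lie above the circle, at 1579 FPKM.

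Among the actins, ACTB was far above every other isoform. ACTB and ACTG1 encode the cytoplasmic beta and gamma actins, which differ in a few residues near the amino terminus, while ACTA2 and ACTG2 encode the smooth muscle actins and ACTA1 and ACTC1 those of skeletal muscle and heart. ACTB was at 1546 FPKM and rank 15, between LDHA and the ribosomal protein RPS23 (1496 FPKM). ACTG1 was at 35.7 FPKM and rank 2027, next to TMEM245 (35.7 FPKM) and the filament-capping protein TMOD3 (35.6 FPKM). ACTB was 43.4 times ACTG1 and held 97.2% of the FPKM of all actins, against 2.24% for ACTG1. With pseudogene rows added to both, ACTB was 41.1 times ACTG1. The 2 proteins are near-identical, but how alike the transcripts are was not measured. How reads common to both genes were assigned is not given, so the split between ACTB and ACTG1 is uncertain. The part of that rule in the split was not tested. ACTA2 followed at 7.92 FPKM, or 0.498%, and rank 7135, next to MTPAP, a mitochondrial polyA polymerase (7.92 FPKM), and DCAF15, a ubiquitin ligase subunit (7.92 FPKM). ACTG2 was at 1.15 FPKM and ACTC1 at 0.0297 FPKM, and ACTA1 had no row. The 2 thymosins together, at 4504 FPKM, were 2.85 times ACTB and ACTG1 together, at 1582 FPKM. With pseudogene rows added to both sides this ratio was 4.32.

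Actin genes are textbook targets of SRF, the serum response factor, a transcription factor that binds the CArG box and works with cofactors released from actin monomers. Since the actin levels span such a range, the windows that held a CArG box, exact or with 1 mismatch in the inner bases, are shown from the RefSeq promoter table (GRCh38.p14), 5′ to 3′ on the gene's own strand, with these boxes in capitals:
ACTG1, chr17:81512800-81513049, minus strand: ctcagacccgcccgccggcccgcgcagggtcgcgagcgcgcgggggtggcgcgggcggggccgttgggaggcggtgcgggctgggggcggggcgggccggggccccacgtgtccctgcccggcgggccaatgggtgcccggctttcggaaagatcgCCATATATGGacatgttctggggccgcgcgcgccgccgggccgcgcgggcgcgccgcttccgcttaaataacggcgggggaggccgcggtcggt
ACTA2, chr10:88952774-88953023, minus strand: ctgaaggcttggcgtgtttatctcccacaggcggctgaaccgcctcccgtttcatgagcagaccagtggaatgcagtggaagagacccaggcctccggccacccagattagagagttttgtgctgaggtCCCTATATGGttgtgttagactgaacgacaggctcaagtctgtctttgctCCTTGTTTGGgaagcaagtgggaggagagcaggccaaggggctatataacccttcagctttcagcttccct
ACTG2, chr2:73892873-73892932, plus strand: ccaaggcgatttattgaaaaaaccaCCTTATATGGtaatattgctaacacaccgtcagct
ACTA1, chr1:229434157-229434216, minus strand: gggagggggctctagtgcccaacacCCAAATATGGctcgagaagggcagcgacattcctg
ACTC1, chr15:34795624-34795683, minus strand: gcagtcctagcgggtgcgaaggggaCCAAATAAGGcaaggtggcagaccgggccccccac
For ACTG1 and ACTA2 the 250 bases before the start are given, and for the other actins 60 bases around the first exact box. The box reads the same way on both strands as a pattern, so 1 search covers both. ACTG1 held an exact box at -94. ACTA2 has 2 windows; the one shown held 2 boxes with 1 mismatch each, at -121 and -71, and the other held none. ACTG2 held exact boxes at -110 and -73, ACTA1 at -97 and ACTC1 at -109. Outside the bases printed, ACTA1 also held boxes with 1 mismatch at -224 and -178, and ACTC1 at -237, -200 and -149. ACTC1 has further windows, which held no box with up to 1 mismatch. An exact box was found in 1.29% of all 35116 windows, and a box with up to 1 mismatch in 8.13%. Of the 10 genes, 8 have a window in the table, and ACTB and TAGLN do not. Of these 8, ACTG1 alone held an exact box; TMSB10, TMSB4X, PFN1, CFL1, TAGLN2 and MYL6 held none with up to 1 mismatch either, which says only that these letters are not in these windows. Among the actins with a window, those with exact boxes had levels between 35.7 FPKM for ACTG1 and 0.0297 FPKM for ACTC1, with no row for ACTA1. ACTB, the highest actin, could not be searched, so boxes cannot be set against levels over all actins.

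**Figure D3:**
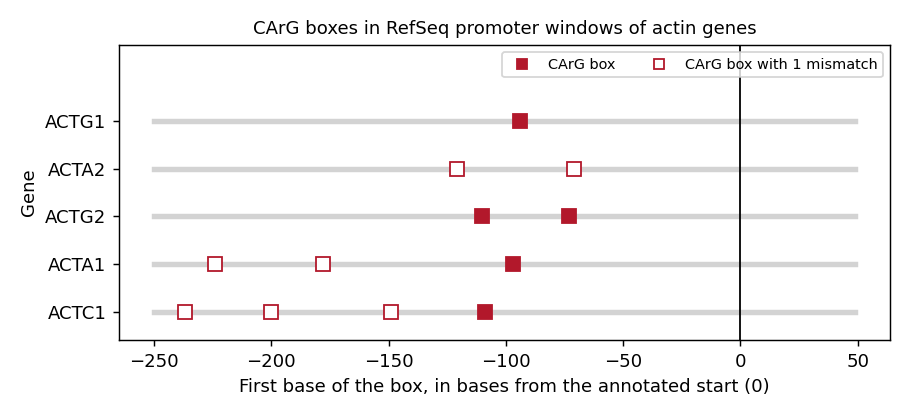
Position of the first base of each CArG box, in bases from the annotated start at 0, in the RefSeq promoter windows (grey bars) of 5 actin genes; filled squares are exact boxes and open squares have 1 mismatch. The 5 genes are drawn because a window of each held a box. Boxes lie between -237 in ACTC1 and -71 in ACTA2, and those of ACTA2 all have 1 mismatch.

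SRF itself was at 4.64 FPKM, the lowest listed gene of its group. Of 9 genes for SRF and its cofactors, 8 had a row and all 8 reached 1 FPKM, against 77.5% of all coding rows. The median of the 8 was 12.8 FPKM. The highest were FHL2, a LIM-domain cofactor, at 89.9 FPKM, the ternary complex factor ELK1 at 28.5, MRTFB, a cofactor that senses actin monomers, at 22.5, and ELK3 at 18.4. MRTFA, the paralogue of MRTFB, was at 6.03 FPKM. MYOCD, the cofactor of muscle cells, had no row.

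The proteins that feed and cut filaments were led by cofilin. CFL1, which severs old filaments, was at 537 FPKM and rank 78, between the matrix genes FN1 (538 FPKM) and COL1A2 (535 FPKM). It was 4.44 times DSTN, the related severing protein destrin (121 FPKM), and 7.13 times CFL2, known as the muscle form (75.3 FPKM). CFL1 held 73.2% of its family. PFN1, which hands monomers to filament ends, was at 159 FPKM and rank 330, between AKAP12, a kinase anchor (159 FPKM), and PSMA7, a proteasome subunit (158 FPKM). PFN2, known as the neural form, was at 103 FPKM, so PFN1 was 1.53 times PFN2. PFN4 was at 0.153 FPKM and PFN3 had no row; both are known from testis. Among the proteins that bind monomers, TMSB10 was 18.5 times PFN1, and TMSB4X 9.96 times. With pseudogene rows added to both sides, TMSB10 was 18.3 times PFN1 and TMSB4X 24.5 times, so their order turned round.

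Other genes of filament turnover lay below CFL1. All 16 on that list had a row and 14 reached 1 FPKM, against 77.5% of all coding rows. The median of the 16 was 59.1 FPKM. CAP1, which recycles monomers, was at 170 FPKM, WDR1, a cofilin helper, at 105, CAPG, a capping protein, at 103, and GSN, the severing protein gelsolin, at 99.4. VIL1, the villin of gut epithelium, was lowest at 0.137 FPKM. The kinases and phosphatases that switch cofilin off and on, or act above those that do, were all listed. All 10 reached 1 FPKM, and their median was 8.72 FPKM. PAK2 was highest at 26.4 FPKM, followed by the phosphatases SSH2 (13.3) and SSH1 (13.1) and the kinase TESK1 (10.7), and TESK2 was lowest at 2.11. LIMK1 and LIMK2, the LIM kinases that phosphorylate cofilin, were at 3.77 and 9.39 FPKM. All 9 genes of the Arp2/3 complex, which starts branched filaments, reached 1 FPKM, and the median was 94.9 FPKM. ARPC2 was at 179 FPKM, ACTR3 at 166, ARPC3 at 147 and ARPC4 at 104, and ARPC5L was lowest at 29.6, so the subunits lay within a 6.05-fold range.

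TAGLN2 and TAGLN, close relatives in the calponin family, were far apart. TAGLN2, the transgelin of non-muscle cells, was at 172 FPKM and rank 300, between DDIT4, a stress-induced inhibitor of mTOR signalling (173 FPKM), and GSTO1, a glutathione transferase (172 FPKM). TAGLN, the smooth muscle form also called SM22, was at 7.19 FPKM and rank 7456, between GAS2L1, a linker of actin and microtubules (7.19 FPKM), and MAN1C1, a mannosidase (7.19 FPKM). TAGLN2 was 23.9 times TAGLN and held 66.9% of the family. CNN3 and CNN2, the calponins of non-muscle cells, were at 37.9 and 36.6 FPKM. CNN1, the smooth muscle calponin, was at 2.62 FPKM, and TAGLN3, the neuronal transgelin, at 0.490 FPKM.

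TAGLN2 has been reported as a target of miR-1 and miR-133, miRNAs of muscle. In the small RNA library of the same cell line, which lists 11785001 miRNA reads, miR-1-3p had 71 reads, or 0.000602% of them (exact Clopper-Pearson 95% interval 0.000471 to 0.000760%, counting error only), and miR-206, of the same seed, had 2 reads. Both mature sequences, written in T as the file has them with the seed (bases 2 to 8) in capitals, are given here because they carry the same seed:
miR-1-3p: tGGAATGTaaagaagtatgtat
miR-206: tGGAATGTaaggaagtgtgtgg
miR-133a and miR-133b had no row. A level in 1 library does not show whether a miRNA acts on TAGLN2.

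MYL6 was the highest gene of myosin II. It encodes the essential light chain of non-muscle and smooth muscle myosin, and at 1115 FPKM and rank 24 it lay between the glycolytic enzyme PKM (1163 FPKM) and the prolyl isomerase PPIA (1096 FPKM). The regulatory light chains MYL12A and MYL12B followed at 284 and 223 FPKM, then MYL6B, a second essential light chain, at 78.8, and MYL9, the regulatory light chain of smooth muscle, at 38.6. MYL6 was 3.92 times MYL12A, 14.2 times MYL6B and 28.9 times MYL9, and held 64.1% of the light chain sum. Of the heavy chains, MYH9, of non-muscle myosin IIA, was at 283 FPKM and held 99.6% of their sum. MYH10, of myosin IIB, was at 0.877 FPKM, MYH11, of smooth muscle, at 0.249 FPKM, and MYH14, of myosin IIC, had no row. MYL6 was 3.95 times MYH9.

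**Figure D4:**
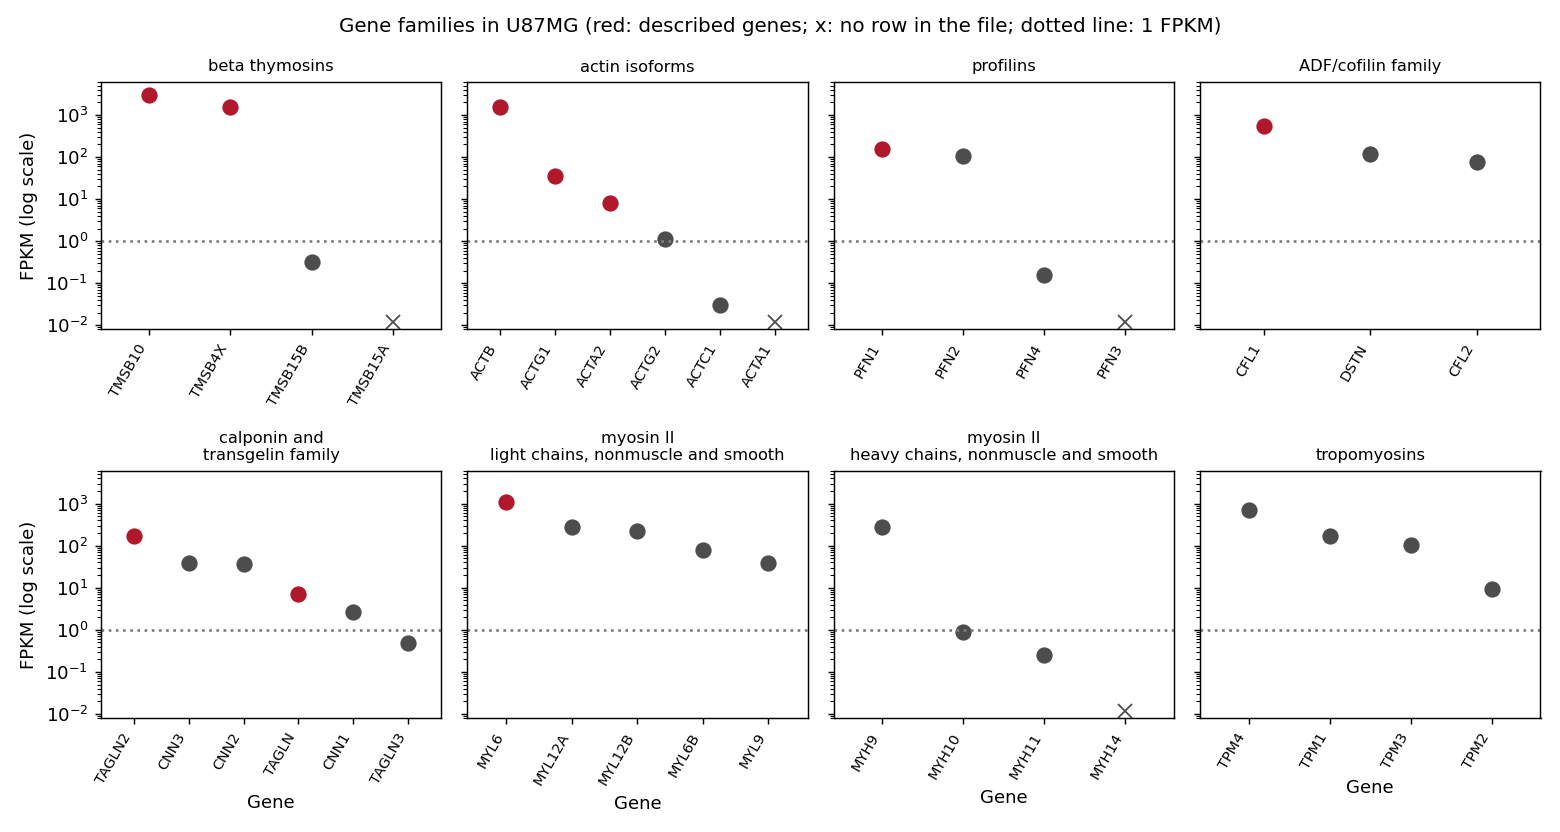
FPKM (log axis) of every gene in 8 families of the actin cytoskeleton, ordered from high to low within each family; red points are the 10 genes described, crosses at the foot are genes without a row. In each of the 6 families with red points 1 of them is highest, and ACTG1, ACTA2 and TAGLN lie far below the top of their own families.

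Tropomyosins, which line the filaments, were all listed. TPM4, a mostly non-muscle form, was at 703 FPKM, 4.11 times TPM1 (171 FPKM), followed by TPM3 at 101 FPKM and TPM2, high in smooth muscle, at 9.55 FPKM. Of the genes that set myosin phosphorylation, 9 of 9 were above 1 FPKM, against 77.5% of all coding rows, and the median was 33.2 FPKM. The highest were the GTPases RHOA (292) and RHOC (155), the phosphatase subunit PPP1CB (66.3) and the kinase MYLK (47.6). PPP1R12B, the myosin phosphatase subunit of muscle, was lowest at 5.91 FPKM.

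Of 16 crosslinkers and anchors, 14 reached 1 FPKM, and the list's median was 54.6 FPKM. ACTN4, a non-muscle alpha-actinin, was at 287 FPKM, the integrin-binding TLN1 at 167, ACTN1 at 146 and the membrane linker MSN at 125. FLNA, the widely expressed filamin, was lowest at 0.328 FPKM, whereas FLNC, the muscle filamin, was at 121 FPKM, 369 times FLNA; this pair was singled out after its values were seen. The rules for strand and shared reads behind the FLNA value are not given, and their part in it was not tested. Leaving aside genes found only in the muscle and glial lists, 97 other genes of these lists were examined. Muscle genes that also stand on another list, such as ACTC1 among the actins, were kept. Of them, 82 were at 1 FPKM or more, 10 were listed below 1 FPKM and 5 had no row. Of all coding rows, 77.5% were at 1 FPKM or more. The median of the 97 genes, over those with a row, was 36.1 FPKM, against 354 FPKM for the 10 genes described and 7.82 FPKM for all coding rows. Members and lists were chosen with earlier results of these data known, so these medians describe the chosen genes and are no test.

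The smooth muscle list was uneven, and ACTA2 and TAGLN lay in its middle. Of 14 genes, 13 had a row and 9 reached 1 FPKM, against 77.5% of all coding rows. The median was 7.19 FPKM, the level of TAGLN. CALD1, the filament-binding caldesmon, was at 104 FPKM, MYLK at 47.6, SMTN, smoothelin, at 43.7 and MYL9 at 38.6. Of these, CALD1, MYLK and MYL9 are also used outside muscle. Lower on the list were CNN1 at 2.62 FPKM, ACTG2 at 1.15, MYH11 at 0.249, LMOD1, leiomodin, at 0.123 and SYNM, synemin, at 0.0203. DES, desmin, had no row. In a bulk library, fewer cells that express ACTA2 or TAGLN and less of their RNA per cell cannot be told apart.

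Sarcomere genes of striated muscle were mostly not listed. Of 26 genes 1 reached 1 FPKM, against 77.5% of all coding rows. It was TNNT1, the slow skeletal troponin T, at 28.1 FPKM. NEB, nebulin, was at 0.651, TNNC2, a fast troponin C, at 0.473 and MYH3, the embryonic myosin, at 0.351, and ACTC1 was lowest at 0.0297. No row was found for ACTA1, MYH1, MYH2, MYH6, MYH7, MYH8, MYL1, MYL2, MYL3, MYL4, MYL7, TNNC1, TNNI1, TNNI2, TNNT2 and TNNT3. The striated muscle actins and myosins on this list were therefore all below 1 FPKM or without a row.

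**Figure D5:**
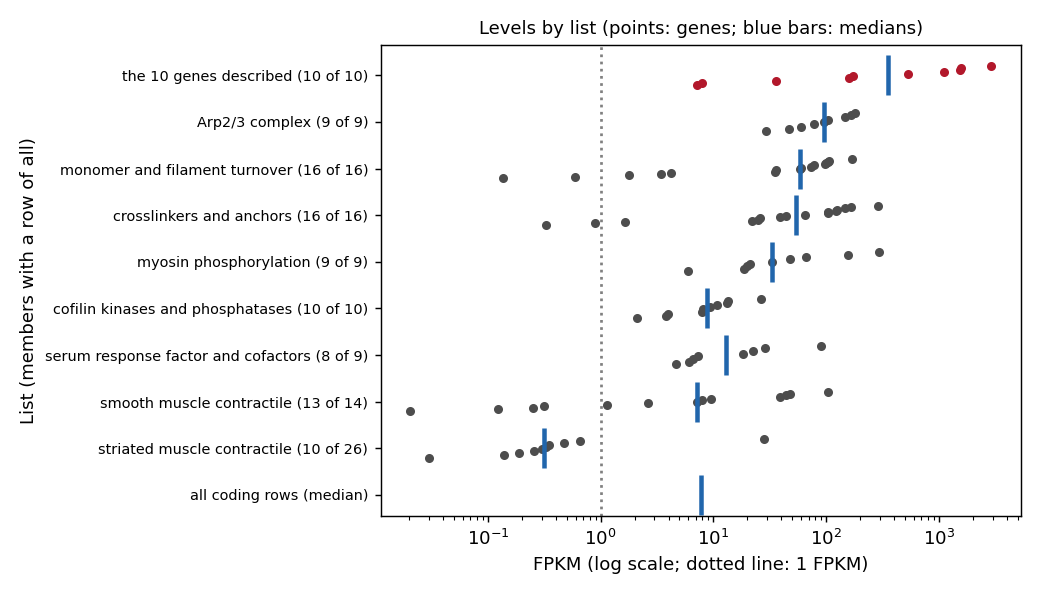
FPKM (log axis) of single genes (points) in the 10 genes described and in 8 of the other lists, with the median of each (blue bars); gene families are left out here, and the row labels give how many genes of each list had a row, and the last row is the median of all coding rows. Of the lists in this plot, the 10 genes have the highest median, 354 FPKM, and the striated muscle list the lowest, 0.317 FPKM. Genes and lists were chosen with earlier results of these data known.

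ACTA2 and TAGLN share their loci with other genes. In the RefSeq annotation ACTA2 overlaps FAS, a death receptor listed at 11.1 FPKM, and ACTA2-AS1, an antisense RNA listed at 0.722 FPKM, which is 9.11% of ACTA2. TAGLN overlaps PCSK7, a protein convertase listed at 11.3 FPKM. Whether reads were counted by strand is not given, so reads from stretches that these genes share cannot be told apart here. How much exon sequence they share was not measured. No other member overlapped a gene that could be matched to a row.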

How the data were processed

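Gene expression was measured in 1 mRNA library, and miRNAs in 1 small RNA library, of untreated U87MG cells. The mRNA values are FPKM per Ensembl gene, as deposited by the authors. The miRNA values are read counts per mature miRNA, as deposited and not normalized; they total 11785001. Per the submitters' processing notes, cutadapt and the builds hg19 and GRCh37 were used; for the aligner, counter, strand setting, FPKM program and annotation nothing is given in the sources used here. For the mRNA library the labels repeat the small RNA protocol, so how the mRNA was selected is not known.

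Genes were matched by Ensembl ID, then symbol, then older symbol; the gene name table holds all 10 member IDs, and 2 list genes stood under an older symbol. A gene counted as expressed at 1 FPKM and as high at 100 FPKM. List medians are over members with a row. Pseudogene rows were those named as the parent's symbol followed by P and a number, so copies under other names are missed. Promoter sequences and gene overlaps come from RefSeq on GRCh38.p14, used by symbol only. The motif search and counts were tested on simulated data. Python 3.11.15 and pandas 2.3.3 were used.

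The members and lists were chosen with earlier results of these data known. Named were all members, their neighbours in rank, and from each list the 4 highest, the lowest and all without a row, or every gene of lists of 6 or fewer; a few others were added. No test was possible with 1 library. The piRNA table was not used here.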

Additional observations from a re-analysis of the deposited data

How the results depend on the processing

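Every value comes from 1 library of unknown depth, so no setting could be judged against a replicate spread, and no paired analysis was possible because the groups hold 1 library each. All 10 genes were also at 0.5 and at 5 FPKM or more, and 7 at 100 FPKM or more. Of all coding rows, 3.83% were at 100 FPKM or more. Their share at 0.5 and at 5 FPKM was not computed, but their median, 7.82 FPKM, lay above both cut-offs. Their share of the FPKM sum, 2.16% over coding rows, was 0.229% over all rows, 2.44% without ribosomal protein genes and 2.76% with pseudogene rows added. With pseudogene rows added, the actin shares were 97.1% for ACTB, 2.36% for ACTG1, 0.497% for ACTA2, 0.0720% for ACTG2 and 0.00186% for ACTC1. With genes lacking a row set to 0, medians were 790 FPKM for beta thymosins, 4.53 for actins, 51.8 for profilins, 0.563 for myosin heavy chains, 4.91 for smooth muscle, 0 for striated muscle, 7.32 for SRF and its cofactors and 1.38 for glial markers; the other 11 medians did not move. The ratios with pseudogene rows added were chosen after seeing the data. Summing rows of one symbol moved none of the 19 medians. With 1 mismatch allowed, 2 members held a CArG box, against 1 with the exact box. Ranks over all rows ran from 43 for TMSB10 to 7993 for TAGLN.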
